A study of Mus musculus with 4 samples.

Results

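The genes described here encode the proteasome, its immunoproteasome variant and the proteins that assemble, activate or inhibit it. Members were taken by symbol, as every protein-coding mouse gene whose name starts with Psma, Psmb, Psmc, Psmd, Psme, Psmf or Psmg, which gave 50 genes of the 55573 Ensembl identifiers measured. RNA was sequenced from bone marrow B cells of C57BL/6 mice aged 8 to 12 weeks, sorted as Fr.C+C', the gate that holds late pro-B together with early pre-B cells in the Hardy scheme. WT 1 and WT 2 are the 2 libraries of the wild type, KO 1 and KO 2 the 2 libraries labelled ADAR1 KO, and ADAR1 is the enzyme that edits adenosine to inosine in double-stranded RNA. Not given in the sources used here were the way the gene was deleted, the cells that lack it and the number of mice behind each library, so p-values measure only the spread among libraries, which can be technical.

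The proteasome is the protease that degrades proteins tagged with ubiquitin. Its 20S core is a barrel of alpha rings, which gate the entry, around beta rings, which cut, and the 19S cap binds ubiquitin, unfolds the substrate with a ring of ATPases and feeds it in. In lymphocytes and in cells exposed to interferon, the 3 constitutive cutting subunits are replaced in newly made cores by the immunoproteasome subunits, which favours peptides that fit MHC class I. Psmb9 (beta1i) takes the place of Psmb6 (beta1), Psmb10 (beta2i) that of Psmb7 (beta2), and Psmb8 (beta5i) that of Psmb5 (beta5).

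Each library held between 15124120 and 16416740 fragments on genes, as recovered from the steps between low FPKM values (fragments per kilobase of exon, scaled to library depth). Adar itself had 15.04 (WT 1), 14.62 (WT 2), 15.19 (KO 1) and 16.79 (KO 2) FPKM, values over the whole gene that do not check the label. The sort markers Cd24a, Enpep (BP-1) and Spn (CD43) were present in every library, with none below 18.7 FPKM. KO 2 stood apart. The summed FPKM of 20 B lineage identity genes was 3230 and 3337 in WT, 2705 in KO 1 and 1622 in KO 2, and that of 18 neutrophil genes was 29150 and 27143 in WT, 37707 in KO 1 and 77280 in KO 2, with no neutrophil gene at 0 in any library. Lists of other cell types did not share a direction. The sum of 8 plasmacytoid dendritic genes was higher in both KO libraries (302 and 273 FPKM in WT, 344 and 342 FPKM in KO). That of 10 T and NK genes was also higher in both, with KO 1 just above WT 1 and KO 2 at 124 FPKM. For 11 monocyte and macrophage genes the groups overlapped (418 and 284 FPKM in WT, 298 and 550 FPKM in KO). The sum of 8 erythroid genes was lower in both KO libraries. It was 1206 and 706 FPKM in WT 1 and WT 2 and 310 and 598 FPKM in KO 1 and KO 2. The same held for 6 plasma cell genes (205 and 184 FPKM in WT, 108 and 88.6 FPKM in KO). In limma 0 of the 8 erythroid genes and 1 of the 5 plasma cell genes tested passed, Jchain, at 105.85 and 91.45 FPKM in WT and 0.25 and 0.45 FPKM in KO (adjusted p = 0.00135). The lower plasma cell sums rested mainly on Jchain. Of the other plasma cell genes tested, Tnfrsf17 and Sdc1 were also below WT in both KO libraries, and Mzb1 overlapped. Xbp1 was above WT in both KO libraries, at 45.61 and 39.29 FPKM in WT and 47.08 and 55.40 FPKM in KO. All 24 interferon-stimulated genes listed for reference had a higher mean in KO, and none passed the test. Their sums were 282 and 236 FPKM in WT against 354 and 513 FPKM in KO 1 and KO 2. The part of these shifts in the results below was not tested, and in bulk samples fewer cells of a type and less RNA per cell cannot be told apart.

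Proteasome transcripts were slightly less abundant in the libraries labelled KO on the authors' FPKM scale. Summed over all 50 members they reached 2122 and 1968 FPKM in WT 1 and WT 2, 1875 FPKM in KO 1 and 1627 FPKM in KO 2, which is 0.650%, 0.626%, 0.583% and 0.468% of all FPKM in those libraries. Both KO libraries were thus below both WT libraries, and KO 2 was the lowest. A share of all FPKM also depends on the other genes. The 18 neutrophil genes summed to 77280 of 347309 FPKM in KO 2 and to 37707 of 321759 FPKM in KO 1. In WT 1 and WT 2 they summed to 29150 of 326438 and 27143 of 314476 FPKM. Their part in the lower shares was not tested. Of the 50 members, 48 passed the filter, a group mean of 1 FPKM or more in WT or KO, all of them with a WT mean of at least 5.1 FPKM. Limma on log2(FPKM + 1) called 0 of the 48 at an adjusted p under 0.05, where it called 0.203% of all 13281 genes tested. An unadjusted p under 0.05 was reached by 2 members, Psme4 and Psmc1, both lower in KO, where 6.02% of all genes were lower and 6.45% higher at that level. Voom on estimated fragments also called 0 members.

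The direction was shared by nearly all members, on most scales. The log2 change was below 0 for 46 of 48 members, where it was for 61.7% of all genes. The median was -0.22 for members and -0.09 for all genes. Both KO libraries lay below both WT libraries for 28 of the 48 (31.7% of all genes did) and above both for 0 (19.7% of all genes). Genes with a WT mean of at least 5 FPKM, a level that all 48 members reached, came closer to the members. Of these 8225 genes, 5561 had a log2 change below 0, with a median of -0.13. Both KO libraries lay below both WT libraries for 3018 of them and above both for 1456. With median centring or quantile normalization 43 of 48 members stayed below 0, whereas scaling each library to its B lineage genes turned all 48 positive, with a median of 0.32. The libraries were divided by 1.18 (WT 1), 1.26 (WT 2), 1.11 (KO 1) and 0.608 (KO 2), so this turn of the mean changes rested mainly on KO 2. That scaling moved the median of all genes from -0.09 to 0.40, and relative to all genes the members' median was then -0.07, against -0.13 on the deposited scale. The 2 KO libraries did not contribute alike, since the members' median difference from the WT mean was -0.14 in KO 1 and -0.34 in KO 2, where it was -0.01 and -0.17 over all genes. Without KO 1, 7.10% of all genes passed in limma and 0 of the members did, in a fit where the lone KO library is assumed to vary like the 2 WT libraries.

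**Figure D1:**
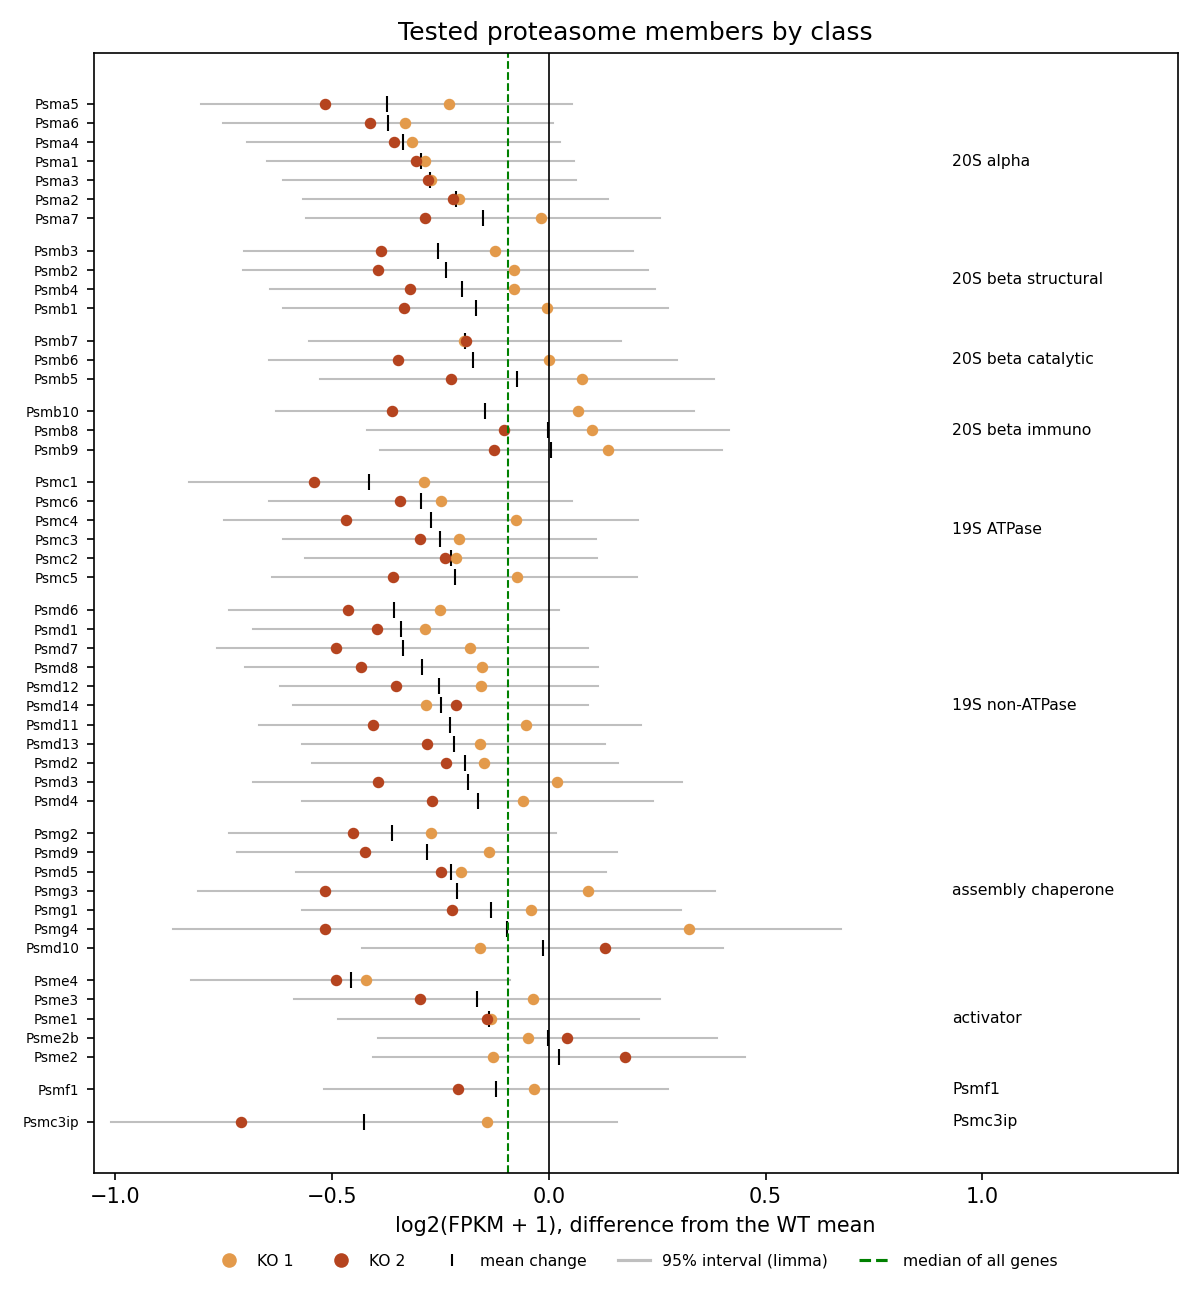
Difference from the WT mean in log2(FPKM + 1) for the 48 tested members, grouped by class, with KO 1 and KO 2 as points, their mean as a tick and the 95% limma interval as a grey line. Most points lie left of 0 and of the dashed median of all genes (-0.09), though scaling to B lineage genes puts all 48 means right of 0. The 3 immunoproteasome genes have KO 1 to the right of 0 and KO 2 to the left, as do Psmb5, Psmd3, Psmg3 and Psmg4.

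The catalytic subunits were examined first. All 6 were well expressed in every library, with between 778 and 2376 estimated fragments each. Fragments may be misassigned where 50-base words of a transcript also occur in other genes. That share was 57.1% for Psmb5, 28.1% for Psmb7, 12.5% for Psmb9, 5.83% for Psmb8, 2.67% for Psmb6 and 0 for Psmb10. Opposite-strand exons of other genes covered 11.8% of the exonic length of Psmb7 and 14.7% of that of Psmb8. Levels of the 6 genes are per union exon length, meaning all annotated exons of a gene counted once. Union lengths differ widely from those of the coding transcripts (899 against 899 bases for Psmb5, but 3381 against 1628 for Psmb8 and 3421 against 1160 for Psmb7), so levels of different genes can be set side by side only roughly.

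Of the constitutive catalytic genes, Psmb5, which encodes the chymotrypsin-like subunit, had the highest FPKM, an order that rests on the union exon length, at 102.84 and 92.35 FPKM in WT 1 and WT 2 and at 102.88 and 83.19 FPKM in KO 1 and KO 2. The groups overlapped, with KO 1 level with the higher WT library. Psmb6, the caspase-like subunit, was at 59.67 and 51.83 FPKM in WT and at 55.61 and 43.45 FPKM in KO. The groups overlapped, with KO 1 between the WT libraries. Psmb7, the trypsin-like subunit, was at 33.33 and 29.47 FPKM in WT against 27.24 and 27.33 FPKM in KO and was the constitutive catalytic gene whose groups did not overlap. The log2 changes were -0.07 ± 0.18 (SE) for Psmb5, -0.17 ± 0.18 for Psmb6 and -0.19 ± 0.14 for Psmb7, with adjusted p of 0.845, 0.654 and 0.549 in limma. Without KO 2 the change of Psmb5 was 0.077, and with scaling to B lineage genes the 3 were above 0 (0.49, 0.39 and 0.36).

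The immunoproteasome genes showed no shared direction on the deposited scale. Psmb8 was at 44.47 and 37.82 FPKM in WT 1 and WT 2 and at 44.03 and 38.08 FPKM in KO 1 and KO 2, so that each group held 1 high and 1 low library. Psmb9 was at 27.98 and 26.76 FPKM in WT and at 30.15 and 25.00 FPKM in KO, and Psmb10 at 39.83 and 38.33 FPKM in WT and at 40.99 and 30.17 FPKM in KO. For both, KO 1 was the highest of the 4 libraries and KO 2 the lowest. The log2 changes were -0.0022 for Psmb8 (95% interval -0.42 to 0.41), 0.0048 for Psmb9 (-0.39 to 0.40) and -0.15 for Psmb10 (-0.63 to 0.33), with adjusted p of 0.995, 0.989 and 0.707 in limma. With intervals this wide no difference was detectable, which does not show that none exists. The sign of each turned on single libraries: without KO 2 all 3 were above WT (0.10, 0.14 and 0.067), and without KO 1 all 3 were below (-0.10, -0.13 and -0.36). With quantile normalization or median centring Psmb8 was above 0 (0.076 and 0.066). With scaling to B lineage genes Psmb8 was at 0.56, Psmb9 at 0.56 and Psmb10 at 0.41.

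**Figure D2:**
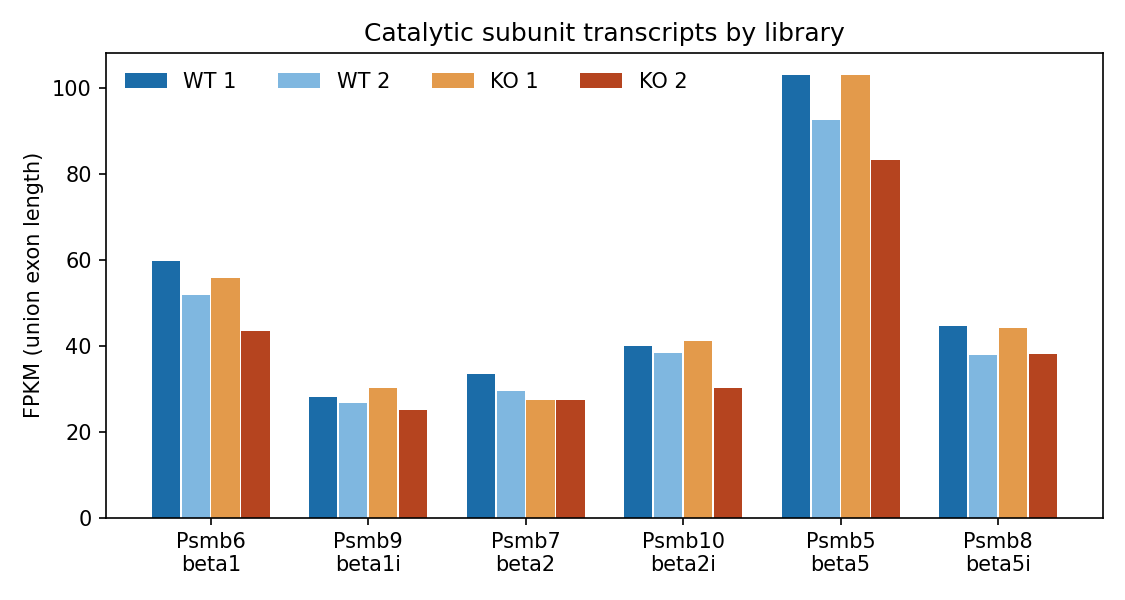
FPKM of the 6 catalytic genes in each library, each constitutive gene beside the immunoproteasome gene that replaces it, as 1 bar per library. The 4 bars of Psmb8 sit between 37.82 and 44.47 FPKM with WT and KO interleaved, and KO 2 is the lowest bar of Psmb6, Psmb9, Psmb10 and Psmb5.

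The ratio of an immunoproteasome gene to the gene it replaces does not depend on the scaling of a library. Psmb9/Psmb6 was 0.469 and 0.516 in WT 1 and WT 2 and 0.542 and 0.575 in KO 1 and KO 2. Both KO libraries were above both WT libraries, by 1.14-fold on average (log2 difference 0.18), while the counting intervals of WT 2 (0.482 to 0.553) and KO 1 (0.507 to 0.580) overlapped. Psmb10/Psmb7 was 1.20 and 1.30 in WT and 1.50 and 1.10 in KO, with the KO libraries on either side of WT. Psmb8/Psmb5 was 0.432 and 0.410 in WT and 0.428 and 0.458 in KO, with overlapping groups. Fragments misassigned through sequence that Psmb5, Psmb7 or Psmb9 shares with other genes could move any of these ratios. The log2 differences of the latter pairs, 0.048 and 0.073, compare with an SD between the KO libraries of 0.32 for Psmb10/Psmb7 and 0.069 for Psmb8/Psmb5. With FPKM summed over the 3 pairs, the ratio was 0.573 and 0.593 in WT and 0.620 and 0.606 in KO. Both KO libraries were above both WT libraries there, by 1.05-fold on average. With 2 libraries against 2 the exact permutation test cannot give a two-sided p below 0.333, and no other test of the 3 pairs was run.

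**Figure D3:**
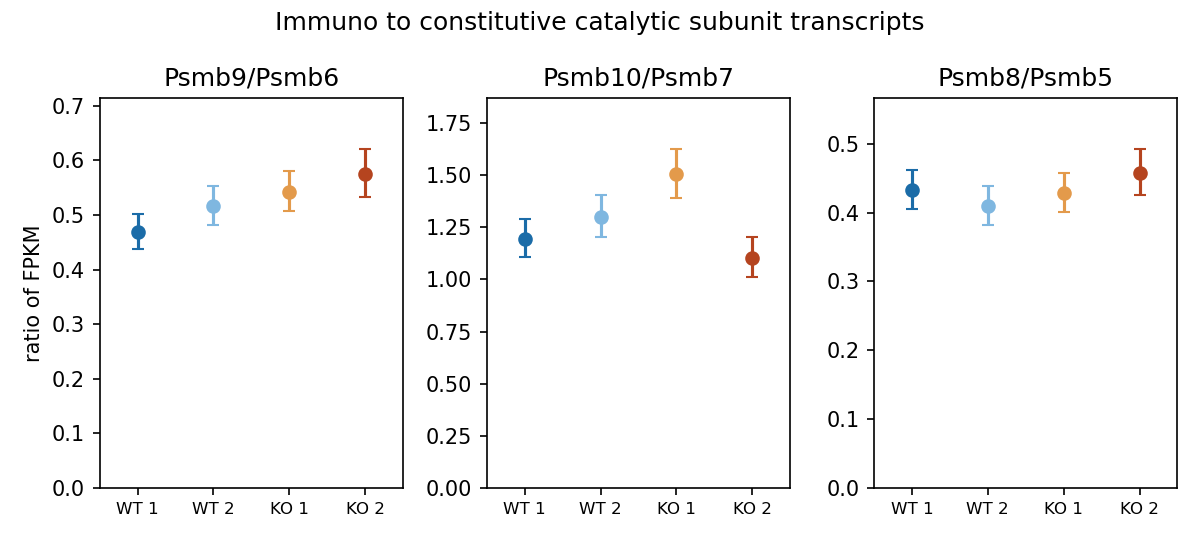
Ratio of FPKM of each immunoproteasome gene to its constitutive counterpart in the 4 libraries, with 95% intervals that cover counting error only. Psmb9/Psmb6 is higher in both KO libraries (0.542 and 0.575) than in WT (0.469 and 0.516), and the other pairs show no separation of the groups.

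How abundant the immunoproteasome transcripts are beside the constitutive ones depended on the length used. Divided by the length of the transcript with the longest coding sequence in place of the union of exons, Psmb8/Psmb5 was 0.898 and 0.851 in WT and 0.889 and 0.951 in KO, which is 2.08 times the values above. Psmb10/Psmb7 then was 0.527 and 0.574 in WT and 0.664 and 0.487 in KO, and Psmb9/Psmb6 0.541 and 0.596 in WT and 0.626 and 0.664 in KO. On that scale every constitutive gene was more abundant than its counterpart in every library, whereas on the deposited scale Psmb10 exceeded Psmb7.

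Upstream sequences are shown for the catalytic genes other than Psmb7 because the immunoproteasome and constitutive sets are known to answer to different factors, the former to interferon through IRF1 among others, the latter to NRF1 and NRF2 (Nfe2l1 and Nfe2l2) when proteasome activity is short. RefSeq start sites (build GRCm38.p6) were found for 42 of the 50 members, and the 250 bases before each start were searched on both strands for TGACNNNGC (core of the antioxidant response element bound by NRF1 and NRF2), the core of the interferon response element (GAAA, 2 bases of any kind, GAAA), TTCNNNGAA (the interferon-gamma activation site) and CCAAT (bound by NF-Y). Capitals mark a match, and only stretches outside annotated exons are shown, with at most 30 bases around a match elsewhere. Psmb5 is from chr14:54618023-54618245 (minus strand), Psmb6 from chr11:70525107-70525356 (plus), Psmb10 from chr8:105938445-105938642 (minus), the Psmb8 match from chr17:34198088-34198116 (plus) and the Psmb9 match from chr17:34187331-34187350 (minus).
Psmb5: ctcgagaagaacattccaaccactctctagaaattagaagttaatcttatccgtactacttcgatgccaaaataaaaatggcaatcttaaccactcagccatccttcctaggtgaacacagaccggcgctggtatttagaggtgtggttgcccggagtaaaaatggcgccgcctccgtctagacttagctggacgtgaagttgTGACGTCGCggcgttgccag
Psmb6: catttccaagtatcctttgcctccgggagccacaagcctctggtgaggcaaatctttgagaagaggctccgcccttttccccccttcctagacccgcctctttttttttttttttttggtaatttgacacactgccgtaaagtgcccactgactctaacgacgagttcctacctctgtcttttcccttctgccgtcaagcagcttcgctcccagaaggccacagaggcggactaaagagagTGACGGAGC
Psmb10: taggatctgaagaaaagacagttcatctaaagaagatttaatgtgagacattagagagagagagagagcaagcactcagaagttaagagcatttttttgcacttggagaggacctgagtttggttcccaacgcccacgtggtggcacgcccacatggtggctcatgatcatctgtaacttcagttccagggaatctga
Psmb8: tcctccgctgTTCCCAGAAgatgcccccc
Psmb9: gcgcagccgctgATTGGaaa
Psmb5 and Psmb6 each held a TGACNNNGC match, Psmb8 a TTCNNNGAA match and Psmb9 a CCAAT box on the strand opposite to the gene (ATTGG as printed), and the Psmb10 window held none of the 4 motifs. Such matches are common: TGACNNNGC was found for 5 of the 42 members (11.9%) against 11.5% of all 27025 genes in the table, TTCNNNGAA for 2 (4.76%) against 8.13%, the interferon response element core for 3 (7.14%) against 3.46%, and CCAAT for 15 (35.7%) against 37.5%. The members with an interferon response element core were Psmb3, Psmd4 and Psmd9, none of them an immunoproteasome gene. A match describes letters in a window and does not show a bound site.

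Psmb9 and Psmb8 lie close together within the MHC region of chromosome 17, at 34181987 to 34187764 on the minus strand and 34197721 to 34201454 on the plus strand (GENCODE M21, GRCm38), and are interleaved with Tap1 and Tap2, which encode the transporter that carries proteasome products into the endoplasmic reticulum. Tap1, which is divergent from Psmb9, was at 34.26 and 34.75 FPKM in WT 1 and WT 2 and at 38.03 and 32.34 FPKM in KO 1 and KO 2. Like Psmb9 it was highest in KO 1 and lowest in KO 2. Their annotated exons overlap over 5.79% of the exonic length of Psmb9 on opposite strands, and the use of strand in counting was not given in the sources used here. Tap2 was at 28.55 and 26.81 FPKM in WT and at 31.37 and 34.50 FPKM in KO, above WT in both KO libraries (log2 change 0.24, adjusted p = 0.490 in limma).

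On the deposited scale 6 of the 7 standard alpha ring genes had both KO libraries below both WT libraries, as did 31.7% of all genes. With scaling to B lineage genes all 7 changes were above 0. Psma6, the member with the highest FPKM per union exon length, was at 129.95 and 133.13 FPKM in WT 1 and WT 2 and at 104.36 and 98.54 FPKM in KO 1 and KO 2. The means differed by -22.9%, and both KO libraries were well separated from WT. Its log2 change was -0.37 ± 0.15, which missed the threshold (adjusted p = 0.408, limma). Psma5 had nearly the same change (-0.37 ± 0.17, adjusted p = 0.439, limma), at 55.62 and 49.80 FPKM in WT and 44.68 and 36.49 FPKM in KO. Psma7, at 48.80 and 45.48 FPKM in WT and 46.52 and 38.46 FPKM in KO, was the standard alpha gene whose groups overlapped (-0.15 ± 0.16, adjusted p = 0.654, limma). The other alpha genes lay between these, and the median change of the 7 was -0.30, with -0.27 in KO 1 and -0.31 in KO 2. Psma8, the alpha subunit made in testis, was at 0.30 and 0.10 FPKM in WT and at 0.20 and 0.32 FPKM in KO, below the filter.

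The structural beta genes Psmb1, Psmb2, Psmb3 and Psmb4, which form the rest of the beta ring and do not cut, had means below WT on the deposited scale and above it with scaling to B lineage genes, and all 4 had overlapping groups. Psmb3 was at 57.15 and 47.78 FPKM in WT and at 47.87 and 39.73 FPKM in KO (log2 change -0.26 ± 0.18, adjusted p = 0.537, limma), with KO 1 just above WT 2. Psmb1 was at 33.52 and 29.71 FPKM in WT and at 31.45 and 24.84 FPKM in KO (-0.17 ± 0.17, adjusted p = 0.648, limma). The class median was -0.08 in KO 1 and -0.36 in KO 2. Psmb11, the beta5t subunit of the thymus, was listed at 0 in WT 1 and both KO libraries and at 0.01 FPKM in WT 2.

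Catalytic and alpha transcripts were also set against each other within a library, which does not depend on scaling. These ratios of summed FPKM were chosen after the values were seen. Immunoproteasome catalytic genes to alpha genes gave 0.294 and 0.284 in WT 1 and WT 2 and 0.370 and 0.324 in KO 1 and KO 2. Constitutive catalytic to alpha genes gave 0.512 and 0.479 in WT and 0.596 and 0.535 in KO. Both were above WT in both KO libraries, by 1.20-fold and 1.14-fold on average, with KO 1 the higher. Structural beta to alpha genes gave 0.676 and 0.607 in WT and 0.724 and 0.644 in KO, and 19S ATPase to alpha genes 0.967 and 0.982 in WT and 1.02 and 0.950 in KO, both with overlapping groups.

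**Figure D4:**
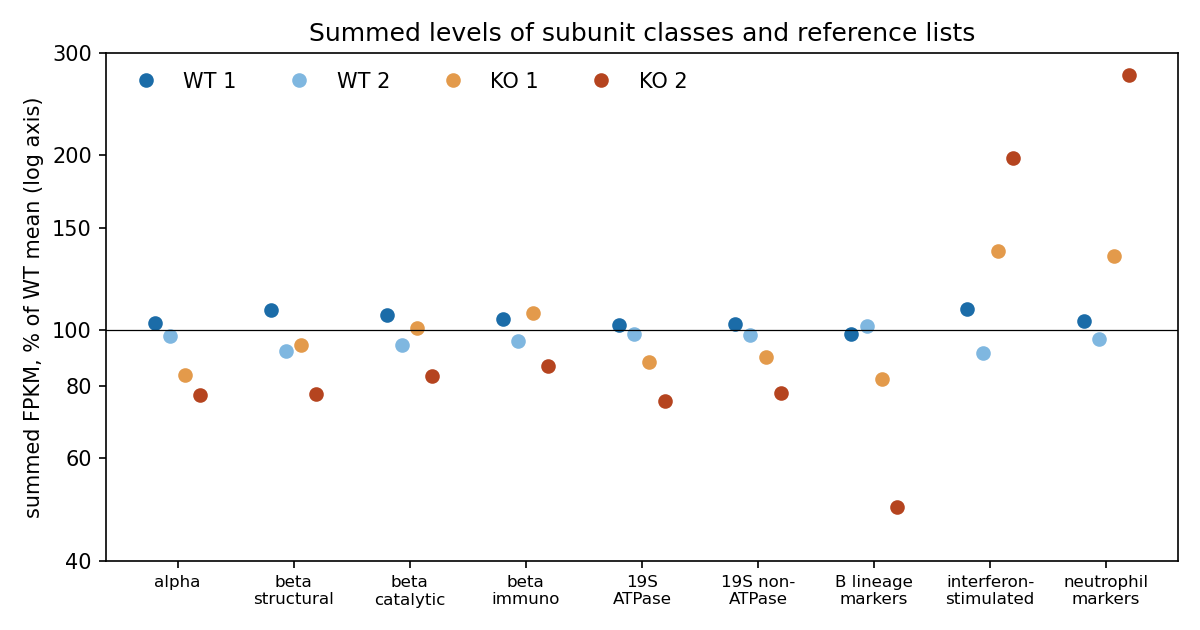
Summed FPKM of each subunit class and of 3 reference lists in the 4 libraries, as a percentage of the WT mean on a log axis. On this deposited scale alpha and ATPase genes are below WT in both KO libraries (83.7% and 77.2%, 88.0% and 75.3%), immunoproteasome genes are at 107% in KO 1 and 86.7% in KO 2, and neutrophil markers reach 275% in KO 2. Scaling to B lineage genes, which moves mainly KO 2, puts the mean log2 change of every standard alpha and ATPase gene above 0.

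The ATPases of the 19S cap, which unfold substrates, lay below WT in both KO libraries for all 6 genes on the deposited scale, as did 31.7% of all genes. Their changes were above 0 with scaling to B lineage genes. Psmc1 (Rpt2) was at 100.60 and 98.03 FPKM in WT 1 and WT 2 and at 81.09 and 67.90 FPKM in KO 1 and KO 2, a clear gap between groups. Its log2 change was -0.42 ± 0.16, the lowest of all core and cap subunits (95% interval -0.83 to -0.0014), with an unadjusted p of 0.0495 and an adjusted p of 0.399 in limma. Psmc5 (Rpt6) had the smallest difference of the 6, at 78.22 and 78.70 FPKM in WT and at 74.45 and 60.91 FPKM in KO (-0.22 ± 0.16, adjusted p = 0.560, limma). Psmc3ip shares the letters of this family by name alone, being a meiotic recombination factor that binds Psmc3. It was at 13.51 and 11.73 FPKM in WT and 11.32 and 7.31 FPKM in KO (-0.43 ± 0.23, adjusted p = 0.474, limma).

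Of the 11 non-ATPase subunits of the cap, all had a log2 change below 0 on the deposited scale (above 0 with scaling to B lineage genes), and 9 had both KO libraries below both WT libraries, as did 31.7% of all genes. Psmd1 (Rpn2), a scaffold of the base, was at 23.01 and 23.66 FPKM in WT and at 18.97 and 17.48 FPKM in KO (log2 change -0.34 ± 0.13, adjusted p = 0.403, limma). Psmd6 (Rpn7), a subunit of the lid, was at 35.28 and 33.07 FPKM in WT and at 28.54 and 24.49 FPKM in KO (-0.36 ± 0.15, adjusted p = 0.423, limma). In both, each KO library was below each WT library. Psmd4 (Rpn10), a ubiquitin receptor, was at 47.33 and 41.43 FPKM in WT and at 42.45 and 36.57 FPKM in KO (-0.16 ± 0.16, adjusted p = 0.631, limma) and overlapped, as did Psmd3. Psmd14, the deubiquitinase of the lid, was the cap subunit with KO 1 lower than KO 2, at 28.99 and 30.48 FPKM against 36.15 and 34.91 FPKM in WT.

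The activators that can replace the 19S cap had no common pattern. Psme4, which encodes PA200, a nuclear activator known from histone degradation, had the largest difference of all members. It was at 17.28 and 19.89 FPKM in WT 1 and WT 2 and at 13.58 and 12.90 FPKM in KO 1 and KO 2, a difference of -28.8%, with both KO libraries low to a like degree. Psme4 had a log2 change of -0.46 ± 0.14 (95% interval -0.82 to -0.09), with an unadjusted p of 0.0239 and an adjusted p of 0.370 in limma. Its adjusted p ranged from 0.0911 without KO 1 to 0.980 without either WT library, fits in which the lone library of a group is assumed to vary like the other group, and its change was 0.084 with scaling to B lineage genes.

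Psme1 and Psme2 encode PA28 alpha and beta, an interferon-inducible cap associated with the immunoproteasome. Psme1 was at 61.13 and 59.12 FPKM in WT and at 54.67 and 54.33 FPKM in KO (-0.14 ± 0.14, adjusted p = 0.633, limma), without overlap. Psme2 was at 18.01 and 15.95 FPKM in WT and at 15.42 and 19.27 FPKM in KO, so that KO 1 was the lowest and KO 2 the highest library (0.02 ± 0.17, adjusted p = 0.950, limma). It cannot be read alone, since 59.3% of the 50-base words of its longest coding transcript also occur in Psme2b, a single-exon copy on chromosome 11, and the authors' counting could split fragments between them. Psme2b was listed higher, at 61.92, 53.34, 55.59 and 59.17 FPKM in the same order of libraries. Their sum was 79.93 and 69.29 FPKM in WT and 71.01 and 78.44 FPKM in KO, with the groups overlapping. Psme3, which encodes PA28 gamma of the nucleus, was at 83.75 and 77.17 FPKM in WT and at 78.39 and 65.25 FPKM in KO (-0.17 ± 0.17, adjusted p = 0.638, limma), also overlapping. A further gene, Fam192a in the annotation used but Psme3ip1 in RefSeq, encodes a partner of PA28 gamma and was not counted as a member. It was at 15.80 and 15.21 FPKM in WT and 15.02 and 13.44 FPKM in KO.

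The assembly factors came next. Psmg1 to Psmg4 build the alpha ring, and Psmd5, Psmd9 and Psmd10 are chaperones of the 19S base. Of the 7, all had a log2 change below 0 on the deposited scale (above 0 with scaling to B lineage genes), and 3 had both KO libraries below both WT libraries, as did 31.7% of all genes. Psmg2 was at 21.77 and 19.59 FPKM in WT and at 16.93 and 14.84 FPKM in KO (-0.36 ± 0.15, adjusted p = 0.415, limma), without overlap. Psmg4, the member with the fewest fragments among the 48 tested (from 175), was at 32.72 and 27.99 FPKM in WT but at 38.11 FPKM in KO 1 and 20.85 FPKM in KO 2, so its 2 KO libraries were the highest and the lowest of the 4 (-0.10 ± 0.30, adjusted p = 0.880, limma). Psmd10 (gankyrin) was at 15.90 and 14.39 FPKM in WT and at 13.45 and 16.65 FPKM in KO, the reverse order (-0.01 ± 0.16, adjusted p = 0.968, limma, and above 0 with quantile normalization or median centring). The inhibitor gene Psmf1 (PI31) was at 8.08 and 7.01 FPKM in WT and 7.33 and 6.38 FPKM in KO (-0.12 ± 0.16, adjusted p = 0.707, limma), with overlapping groups.

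Proteasome genes outside the symbol rule were taken from a list of 21 partners and regulators, of which 20 were matched and tested. On the deposited scale none passed in limma, and 13 were below 0 (61.7% of all genes were). Both KO libraries lay below both WT libraries for 7 (31.7% of all genes). That pattern was closer to all genes than that of the members, with a median change of -0.13. Usp14, the deubiquitinase of the cap, was at 10.38 and 10.24 FPKM in WT and 7.72 and 7.89 FPKM in KO (-0.36, unadjusted p of 0.0399 and adjusted p = 0.386, limma), and Pomp, which matures new cores, at 16.85 and 15.50 FPKM in WT and 13.65 and 11.94 FPKM in KO (-0.32, adjusted p = 0.441, limma). For both, each KO library was below each WT library, as for 31.7% of all genes. Vcp, a segregase that extracts substrates, was at 53.47 and 51.90 FPKM in WT and 46.00 and 43.31 FPKM in KO. Above both WT libraries in both KO libraries were 4 of the 20 genes, a share close to that of all genes (19.7%). They were Zfand5, Sem1 (a small cap subunit), Nfe2l1 (NRF1) and Ngly1, the enzyme that helps to activate NRF1. Nfe2l1 was at 17.71 and 16.09 FPKM in WT and 19.04 and 18.70 FPKM in KO (0.15, adjusted p = 0.611, limma). Nfe2l2 (NRF2) and Ddi2 of the same list had KO libraries on either side of WT. Nfe2l2 was at 28.66 and 27.81 FPKM in WT and 25.94 and 39.91 FPKM in KO. Ddi2 was at 14.37 and 14.31 FPKM in WT and 16.02 and 14.29 FPKM in KO.

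Of 11 class I partners and interferon regulators, 3 of which are also among the 24 interferon-stimulated genes above, 10 had a log2 change above 0 and none passed in limma, with a median of 0.22. Irf1 was at 19.59 and 22.08 FPKM in WT and 25.13 and 25.99 FPKM in KO (0.28, adjusted p = 0.452, limma). It was higher in each KO library than in each WT library. Irf8, a factor of lymphoid and myeloid cells, was at 48.29 and 45.10 FPKM in WT and 57.41 and 52.67 FPKM in KO. Irf8 was also on the list of 8 plasmacytoid dendritic genes, which summed to 302 and 273 FPKM in WT and 344 and 342 FPKM in KO. The summed neutrophil markers were at 134% of the WT mean in KO 1 and 275% in KO 2. Of those 18 markers, 15 were above both WT libraries in both KO libraries, where 19.7% of all genes were. Whether the cell mixture bears on Irf1 or Irf8 was not tested.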

How the data were processed

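The authors deposited 1 FPKM table per library, per the file headers, with values rounded to 2 decimals. The submitters' processing notes name the build mm9, while aligner, counting program and annotation were not given in the sources used here. GENCODE M21 (GRCm38) had symbols for 55480 of 55573 identifiers, and its union exon lengths turned at least 99.4% of the low FPKM values checked into whole fragments within 0.15 (chance gives 30%). Coordinates are those of GENCODE M21 or RefSeq GRCm38.p6. Limma 3.58.1 (R 4.3.3) was fitted with a mean-variance trend to log2(FPKM + 1) of all genes whose group mean reached 1 FPKM in WT or KO, and p-values were adjusted over all of them by the Benjamini-Hochberg method (threshold 0.05, two-sided). The fit was tested on simulated data. Differences are given as KO minus WT with standard errors, and understate changes of low genes. Fragments are estimates, and their intervals cover counting error only. Named were the catalytic genes, the activators, the tissue-restricted genes and, per class, the members with the smallest p and the extreme changes, and, of other genes, up to 4 of a list with the smallest p, some of which are not reported here. Psmd14, Psme2b, Psmg4, Psmc3ip, Nfe2l1, Nfe2l2 and Ddi2 were added after their values were seen. Members and lists were chosen with earlier results of these data known.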

Additional observations from a re-analysis of the deposited data

How the results depend on the processing

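No member passed in limma under any of the 13 alternatives. With 2 libraries a group the 95% intervals of the main fit were wide, and they held 0 for all tested members but Psme4 and Psmc1. Further, 16 members share at least 10% of their 50-base words with other genes, so fragments may be misassigned. The genes called overall numbered 27, and 15 with a pseudocount of 0.1, 0 with no filter on low values, 228 with B-lineage scaling, 68 with the replicate block, 9 with voom on estimated fragments and 213 with the crossed replicate block, a pairing added after same-numbered libraries were seen to deviate in opposite directions (correlation -0.15 across all genes tested, but 0.15 across the 48 members). Leaving out single libraries gave 0 (without KO 2) to 948 (without KO 1) calls, and 14 without WT 1, with the lone library of a group assumed to vary like the other group. Because nothing in the labels ties libraries of the same number, the block is an alternative, and it left the members' median at -0.22 and their calls at 0. That median ranged from -0.34 to -0.14 when single libraries were left out and kept its sign with every other alternative except B-lineage scaling (0.32). The median of the 3 catalytic log2 ratios, which is that of Psmb9/Psmb6 in every library, differed by 0.18 between groups (0.048 for Psmb10/Psmb7 and 0.073 for Psmb8/Psmb5), by 0.072 with summed FPKM, by 0.18 with the replicate block and by 0.11 to 0.25 when single libraries were left out. The cause of these moves was not tested.

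Signs of single genes turned as follows. With quantile normalization Psmb8 was at 0.076, Psmd10 at 0.048 and Psme2b at 0.074, and with median centring at 0.066, 0.054 and 0.065. B-lineage scaling made 0.20, 0.19 and 0.41 of Psma6, Psma5 and Psma7, 0.31 and 0.38 of Psmb3 and Psmb1, and 0.49, 0.39 and 0.36 of Psmb5, Psmb6 and Psmb7. It put Psmb8 at 0.56, Psmb10 at 0.41, Psmc1 at 0.15, Psmc5 at 0.35, Psmd1 at 0.21, Psmd6 at 0.20, Psmd4 at 0.39 and Psmc3ip at 0.094. Under it Psme1 was at 0.42, Psme2b at 0.56, Psme3 at 0.40, Psme4 at 0.084, Psmg2 at 0.18, Psmg4 at 0.45, Psmd10 at 0.53 and Psmf1 at 0.38. Leaving out single libraries moved Psmb8 between -0.12 and 0.11, Psmb9 between -0.13 and 0.14, Psmb10 between -0.36 and 0.067 and Psmb5 between -0.23 and 0.077. The same ranges were -0.16 to 0.13 for Psmd10, -0.13 to 0.18 for Psme2, -0.11 to 0.10 for Psme2b and -0.52 to 0.32 for Psmg4.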
